A study of Mus musculus with 12 samples.

Results

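The RUNX, CBFB, ETO and TLE genes encode core binding factor, its relatives and the corepressors that act with them. The members were chosen by name: Cbfb, Runx1, Runx2, Runx3, Runx1t1, Cbfa2t2, Cbfa2t3, Tle1, Tle3 and Tle4, with every probe set that the platform annotation gives to a single one of these symbols. This gave 31 probe sets of 9 genes, of the 18193 genes named by single-symbol probe sets. None of these probe sets was named Runx2, which was therefore not analysed here. RNA was measured on 1 Affymetrix array per sample in early blood progenitors from normal mouse bone marrow, sorted for c-Kit and Sca-1 and against lineage markers and Flt3. All groups spent 24 h in 10% serum with 50 ng/ml SCF and 5 ng/ml IL-6, then 4 h with retrovirus and 20 h more in fresh medium, and GFP-positive cells were sorted for RNA. INV16 arrays (4, replicates 1 to 4) came from cells given the leukaemia fusion INV16. ACD mutant arrays (3, replicates 1 to 3) came from cells given that fusion without its assembly competent domain, which the design text calls non-leukemogenic. MIB control arrays (5, replicates 3 to 7) came from cells given the empty vector. In the fusion-bearing groups the transgene came from a retroviral vector in normal cells, which kept their own core binding factor genes. The mouse age and strain are not given in the sources used here.

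Core binding factor is a pair of proteins: a RUNX protein that binds DNA through its Runt domain, and CBFB, which binds no DNA itself but steadies that contact. In blood stem cells Runx1 is the best known RUNX gene, needed for the first stem cells of the embryo and for platelet and lymphocyte formation in the adult. The INV16 fusion joins CBFB to the tail of the smooth-muscle myosin MYH11, so that it still binds RUNX proteins, and its assembly domain lets the tails form multimers. RUNX proteins also recruit corepressors of the TLE (Groucho) family through a short motif at their carboxy end. The ETO family, Runx1t1, Cbfa2t2 and Cbfa2t3, are corepressors as well, and RUNX1T1 is the partner of RUNX1 in another leukaemia fusion.

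RUNX genes are read from a distal and a proximal promoter, and RUNX proteins bind DNA at words such as TGTGGT and TGCGGT. RefSeq promoter windows (build GRCm38.p6, from 250 bases before to 50 bases after an annotated start) were found for 9 of the 10 members, 13 windows in all. They were searched on both strands for these words, that is also for ACCACA and ACCGCA; overlapping matches were counted. The distal window of Runx3, whose probe set 1440275_at had the largest fold change among the called member probe sets, is shown with the only Runx2 window and the distal Runx1 window because all 3 hold the same pair of words. Capitals mark every match.
Runx3 distal window, chr4:135120395-135120694, plus strand: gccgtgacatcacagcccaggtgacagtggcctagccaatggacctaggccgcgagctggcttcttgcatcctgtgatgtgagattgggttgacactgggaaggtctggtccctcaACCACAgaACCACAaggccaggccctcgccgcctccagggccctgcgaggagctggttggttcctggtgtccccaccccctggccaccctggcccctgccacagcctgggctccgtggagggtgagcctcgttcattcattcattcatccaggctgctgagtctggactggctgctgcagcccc
Runx1 distal window, chr16:92826025-92826324, minus strand: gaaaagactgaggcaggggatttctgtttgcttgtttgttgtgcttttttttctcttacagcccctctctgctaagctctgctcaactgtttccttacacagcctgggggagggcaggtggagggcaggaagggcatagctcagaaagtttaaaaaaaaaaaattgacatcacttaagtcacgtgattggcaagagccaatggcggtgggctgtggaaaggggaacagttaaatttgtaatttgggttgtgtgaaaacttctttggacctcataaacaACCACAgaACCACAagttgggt
Runx2 window, chr17:44814578-44814877, minus strand: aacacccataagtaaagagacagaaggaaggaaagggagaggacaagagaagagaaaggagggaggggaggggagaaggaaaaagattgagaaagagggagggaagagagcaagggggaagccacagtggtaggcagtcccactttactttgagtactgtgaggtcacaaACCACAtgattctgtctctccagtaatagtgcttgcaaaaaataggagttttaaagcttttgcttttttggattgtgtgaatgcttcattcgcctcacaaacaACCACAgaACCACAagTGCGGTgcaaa
A run of 18 bases, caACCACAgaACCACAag, is identical in the 3 windows. It lies from -136 to -119 relative to the start in Runx3, from 27 to 44 in Runx1 and from 22 to 39 in Runx2. It was picked out after the sequences were seen. Of the 32851 windows in the table, 4 hold it on either strand, and the other one is that of Gm16225, which overlaps the Runx3 window. The Runx2 window holds 2 further matches, and the distal Cbfa2t3 window 1. In all, 4 of the 13 member windows have at least 1 match, against 22.4% of all windows, and 3 have at least 2, against 2.86%. No match was found in the windows of Cbfb, Cbfa2t2, Tle1, Tle3 and Tle4, nor in the proximal windows of Runx1, Runx3 and Cbfa2t3. A match is a description of the letters, and binding was not measured.

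**Figure D1:**
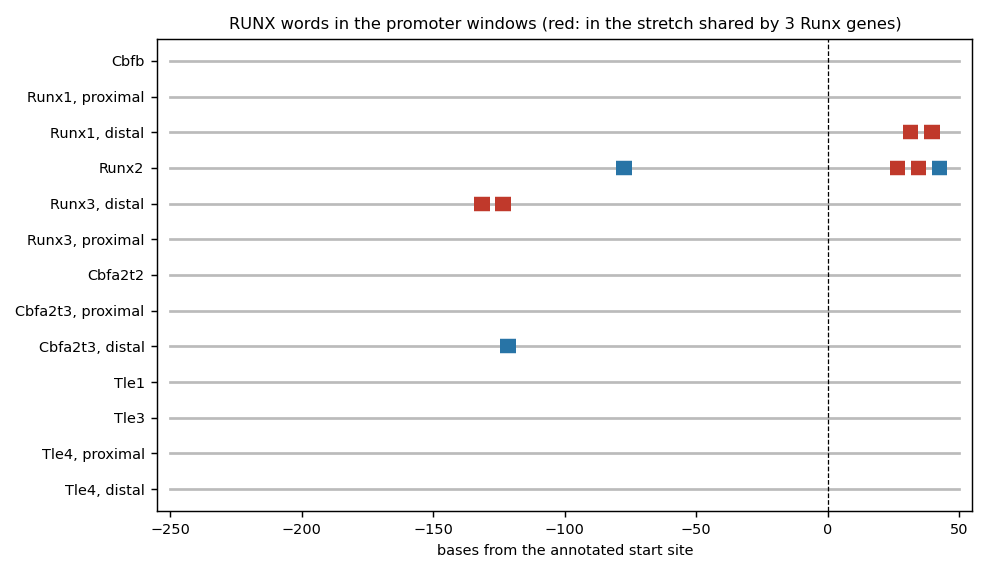
Positions of the RUNX words in the 13 promoter windows of the members. The horizontal axis is the distance in bases from the annotated start (dashed line), each row is 1 window, red blocks lie in the stretch shared by Runx1, Runx2 and Runx3, and blue blocks are the other 3 matches.

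The fourth INV16 array differed from the remaining 11, so it was kept out of the group means and its values are given beside the results. Its correlation with the others across probe sets was 0.895 to 0.917, against 0.985 to 0.996 among the others. On this array 8 of 8 mast cell markers lay above all other arrays, and their mean was 11.21 log2 units, against 6.53 to 6.62 on the other INV16 arrays, 6.93 to 7.12 on the ACD mutant arrays and 6.18 to 7.00 on the MIB control arrays. The sort marker Kit, which encodes c-Kit, was at 10.99, within the 10.26 to 11.43 of the other 11 arrays. The progenitor marker Cd34 read 7.39 on it and 11.15 to 12.35 on the other 11, and Flt3, against whose protein the cells were sorted, read 7.70 on it and 8.03 to 9.76 on the others. The arrays also fell into 2 sets by the spike-in controls BioC and BioB, whose difference was 1.07 to 1.21 log2 in INV16 replicates 1 to 3 and MIB control replicates 3 to 5. It was -0.11 to 0.07 in INV16 replicate 4, the ACD mutant arrays and MIB control replicates 6 and 7. Gapdh probe sets at the 3′ and 5′ ends of the transcript, which part as RNA degrades, differed by 3.64 log2 on INV16 replicate 4. They differed by 3.17 on the first ACD mutant array, and by 1.10 to 1.98 on the remaining 10. In sorted bulk cells fewer cells of a type and less RNA per cell cannot be told apart.

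In the comparison of INV16 with MIB control, which asks what the fusion changes soon after it is introduced, Runx3 and the corepressor gene Tle3 were lower and the related corepressor gene Tle1 was higher. The tested probe sets of Cbfb, Runx1, Cbfa2t2, Cbfa2t3 and Tle4 did not pass the test, and Runx1t1 was below the filter described next and was not tested. Of the 31 member probe sets, 23 passed the filter on low values (12-array mean over 5.10 log2 units, the 40th percentile) and were tested. The linear model in limma, fitted to INV16 replicates 1 to 3, the 3 ACD mutant and the 5 MIB control arrays, called 3 of them at an adjusted p under 0.05, 1 higher and 2 lower. Over all 22683 probe sets tested, 1.39% were called, 0.657% higher and 0.732% lower. An unadjusted p under 0.05 was found for 9 of the 23, against 15.2% of all. With INV16 replicate 4 in the fit 1 of the 23 was called, the Runx3 probe set, against 0.207% of all. The median log2 fold change was 0.02 over the 23 and -0.02 over all probe sets tested. The 6 named neutrophil markers averaged 5.25 to 5.74 log2 units in INV16 replicates 1 to 3 and 5.95 to 7.97 in MIB control. These averages did not overlap, but taken singly only S100a8 and S100a9 were lower in INV16 without overlap. The groups overlapped for the neutrophil genes Ltf, Camp, Ngp and Elane. The 5 megakaryocyte markers averaged 7.36 to 7.50 in INV16 replicates 1 to 3 and 7.34 to 9.49 in MIB control. The averages of the mast cell, erythroid, monocyte, B cell, T and NK cell, and fibroblast and endothelial lists overlapped between these groups. Among the single markers of these lists, only the T and NK cell gene Nkg7 did not overlap. It read 9.90 to 10.05 in INV16 replicates 1 to 3 and 10.31 to 10.90 in MIB control. The part of these markers in the results below was not tested.

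Runx3, a RUNX gene best known for its part in T-cell and nerve cell fates and also transcribed in blood progenitors, had its largest difference in probe set 1440275_at. This probe set read 8.28, 8.36 and 8.97 log2 units in INV16 replicates 1 to 3 and 8.86 in INV16 replicate 4. It read 10.59, 10.29, 10.28, 9.68 and 10.12 in MIB control replicates 3 to 7. All 4 INV16 arrays were below every MIB control array, and INV16 replicate 4 lay among the other INV16 arrays here. The means were 8.54 ± 0.38 (SD, n = 3) and 10.19 ± 0.33 (SD, n = 5), a 3.15-fold lower value in INV16 (limma log2 fold change -1.65, SE 0.20, adjusted p = 0.00285). With INV16 replicate 4 the log2 fold change was -1.57 (adjusted p = 0.0125). Within the arrays of high spike-in difference, 3 of each group, it was -1.85 (adjusted p = 0.0350), and it stayed past the threshold without each of the 11 arrays in turn. The other Runx3 probe set, 1421467_at, gave a different picture: it read 5.96 to 6.10 in INV16 replicates 1 to 3 and 5.82 to 6.54 in MIB control, and the groups overlapped (log2 fold change -0.16, 95% interval -0.50 to 0.17).

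Tle3 encodes a Groucho corepressor that binds RUNX and other transcription factors but not DNA. Its probe set 1419655_at read 7.90, 7.91 and 8.14 in INV16 replicates 1 to 3, against 8.79, 8.81, 8.75, 8.89 and 9.20 in MIB control replicates 3 to 7. These groups did not overlap, whereas INV16 replicate 4, at 9.03, lay among the controls. The probe set was 1.87-fold lower in INV16 replicates 1 to 3 (log2 fold change -0.90, SE 0.13, limma adjusted p = 0.00706). With INV16 replicate 4 the difference was -0.64 (adjusted p = 0.280) and no longer passed. Within the arrays of high spike-in difference it was -0.80 (adjusted p = 0.0808), and without INV16 replicate 1 -0.86 (adjusted p = 0.0541). The other tested Tle3 probe sets, 1458512_at and 1419654_at, had log2 fold changes of -0.64 (adjusted p = 0.181) and -0.38 (adjusted p = 0.265), neither past the threshold. Probe set 1449554_at was below the filter and read 4.32 to 4.64 in INV16 replicates 1 to 3 and 4.39 to 4.77 in MIB control.

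Tle1, another Groucho corepressor gene, went the other way. Probe set 1422751_at read 9.39, 9.72 and 9.46 in INV16 replicates 1 to 3, against 8.86, 7.86, 8.35, 8.63 and 8.39 in MIB control replicates 3 to 7. INV16 replicates 1 to 3 lay above all controls, while INV16 replicate 4, at 7.62, lay below all of them. The difference without replicate 4 was 2.15-fold (log2 fold change 1.11, SE 0.19, limma adjusted p = 0.0149), and with it 0.63 (adjusted p = 0.397). Within the arrays of high spike-in difference it was 1.17 (adjusted p = 0.148), and it also lost the call without INV16 replicate 1 (adjusted p = 0.0680) or replicate 2 (adjusted p = 0.0801). The other Tle1 probe set, 1434033_at, read 7.84 to 8.20 in INV16 replicates 1 to 3 and 7.45 to 7.68 in MIB control, without overlap, and just missed the threshold (log2 fold change 0.50, SE 0.12, adjusted p = 0.0605).

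Tle4, another corepressor of the family, did not pass the test. Its probe set 1450853_at read 9.40, 9.52 and 8.51 in INV16 replicates 1 to 3 and 8.68 to 9.24 in MIB control, so the INV16 arrays spanned the controls. Probe set 1430384_at read 6.47 to 6.85 in INV16 replicates 1 to 3, above the 6.04 to 6.42 of MIB control (log2 fold change 0.40, adjusted p = 0.167). Probe set 1425650_at was below the filter, at 4.07 to 4.28 in INV16 replicates 1 to 3 and 3.76 to 4.15 in MIB control. Counted over all members, the values of INV16 replicates 1 to 3 and MIB control did not overlap in 7 of 23 tested probe sets, against 8.87% of all probe sets tested. In INV16, 4 of them were higher (both of Tle1, 1 of Tle4 and 1 of Cbfa2t2), against 3.80% of all, and 3 were lower (1 each of Runx3, Tle3 and Cbfa2t2), against 5.07%.

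**Figure D2:**
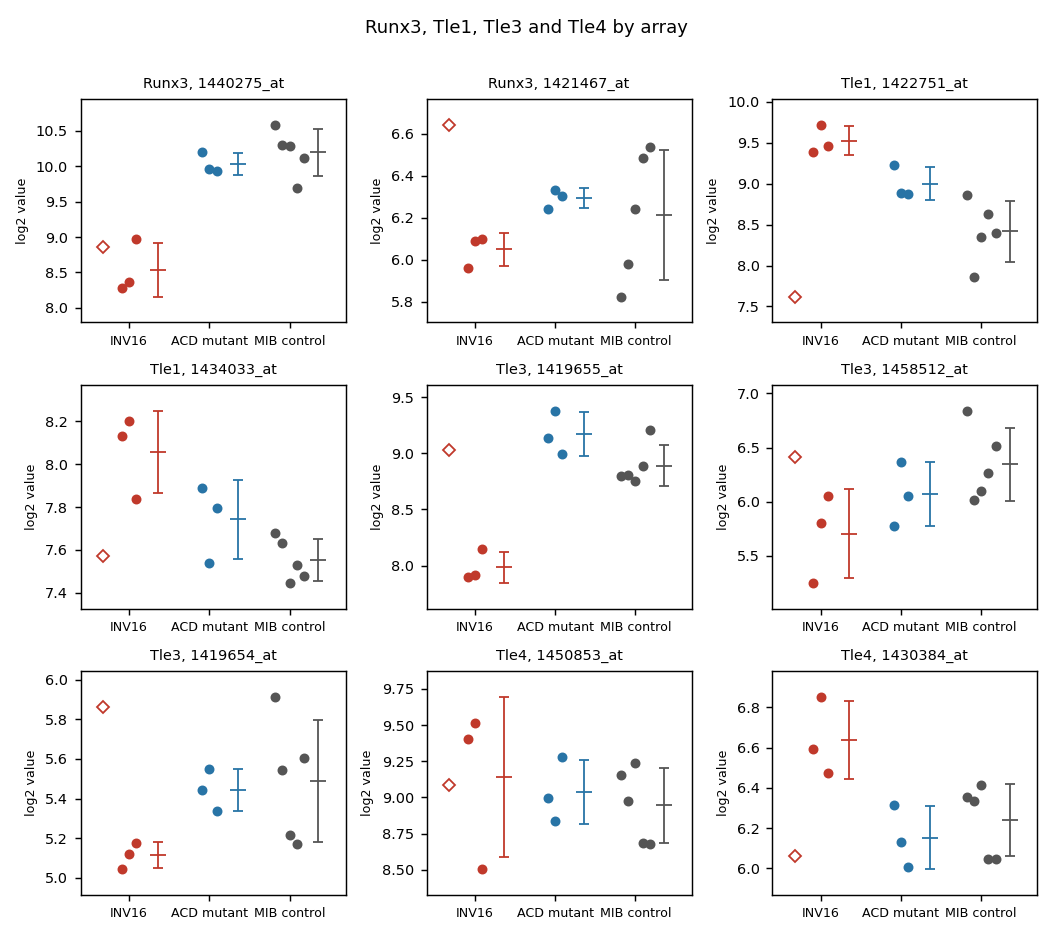
Log2 values of the tested Runx3, Tle1, Tle3 and Tle4 probe sets. Each filled point is 1 array, the open diamond is INV16 replicate 4, and bars are the mean and SD without it; axes differ between panels. In 1440275_at all INV16 arrays lie under 9.0 and all MIB control arrays above 9.6, and in 1419655_at the diamond lies with the controls.

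Cbfb, the gene whose product the fusion carries in part, was measured by a single probe set, 1460716_a_at. It read 12.39, 12.50 and 12.22 in INV16 replicates 1 to 3, 11.05 in INV16 replicate 4, 12.12 on each of the 3 ACD mutant arrays and 12.71, 12.47, 12.41, 12.18 and 12.33 in MIB control replicates 3 to 7. INV16 replicates 1 to 3 fell within the range of the controls, and the ACD mutant arrays lay just below it. The log2 fold change of INV16 against MIB control was -0.05, with a 95% interval of -0.31 to 0.21, and that of the ACD mutant against MIB control was -0.30 (interval -0.56 to -0.04, limma adjusted p = 0.188). Whether this probe set reads the retroviral transcript was not tested, so these values do not measure the fusion.

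Runx1, the main RUNX gene of blood stem cells, had 6 tested probe sets, none of them called in INV16 against MIB control. Probe set 1422864_at read 9.59, 10.05 and 9.54 in INV16 replicates 1 to 3, 11.17 in INV16 replicate 4, 10.53, 10.63 and 10.22 in the ACD mutant and 10.29, 8.30, 8.91, 9.65 and 9.99 in MIB control replicates 3 to 7. The controls alone spanned 1.99 log2 units here, more than any difference between the groups. The 6 log2 fold changes of INV16 against MIB control ran from -0.04 to 0.65. The highest was that of 1422865_at, which read 7.09, 8.03 and 7.93 in INV16 replicates 1 to 3, against 6.63 to 7.29 in MIB control (adjusted p = 0.147). On INV16 replicate 4 the probe sets read 7.19 to 11.49, each above all other 11 arrays. How many of all probe sets were highest on that array was not counted.

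In the ETO family, Cbfa2t2 (also called MTGR1) and Cbfa2t3 (ETO2, a corepressor found with the GATA and TAL1 factors of red cell and platelet precursors) were expressed above the filter. The 3 Cbfa2t2 log2 fold changes of INV16 against MIB control were -0.12, 0.26 and 0.14, none past the threshold. Probe set 1434757_at read 8.61 to 8.66 in INV16 replicates 1 to 3, 8.76 to 8.79 in the ACD mutant and 8.68 to 8.92 in MIB control. For Cbfa2t3 the 4 log2 fold changes of INV16 against MIB control were 0.01, 0.02, -0.37 and -0.37, none past the threshold. Probe set 1438705_at read 8.73, 8.67 and 9.01 in INV16 replicates 1 to 3, 9.17, 9.59 and 9.39 in the ACD mutant and 8.53, 9.27, 8.57, 8.45 and 9.14 in MIB control replicates 3 to 7.

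**Figure D3:**
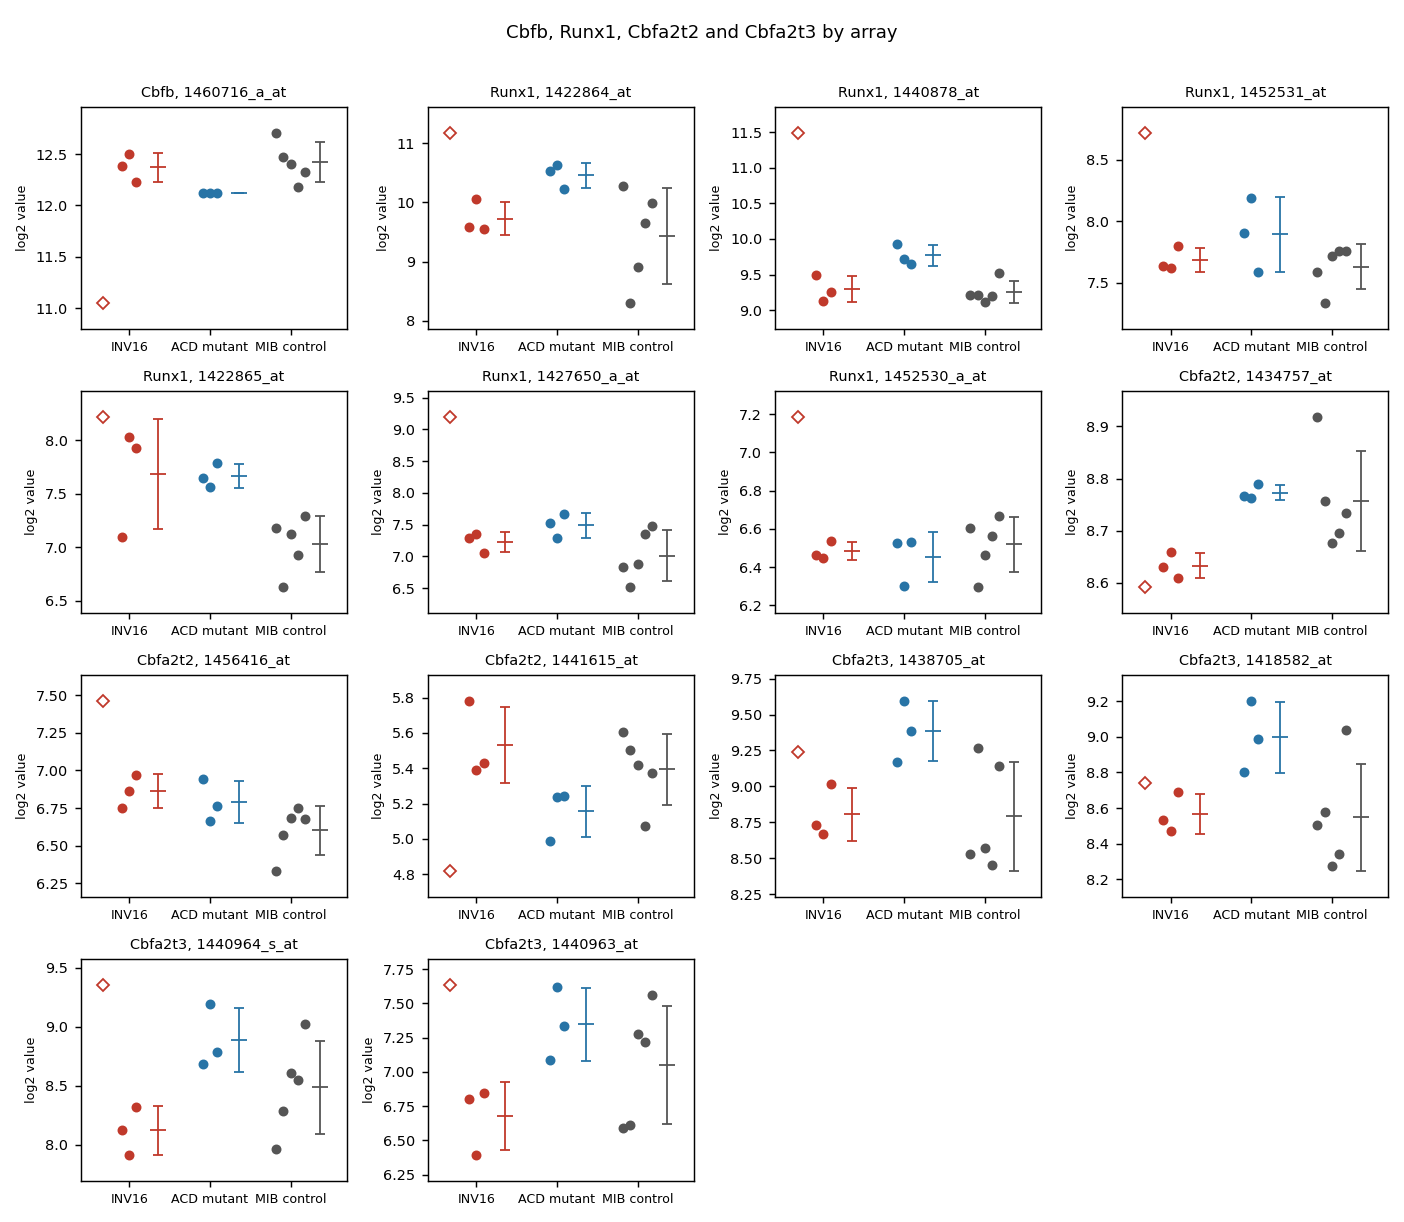
Log2 values of the tested Cbfb, Runx1, Cbfa2t2 and Cbfa2t3 probe sets, drawn as in the plot of Runx3 and the Tle genes. In the 6 Runx1 panels the open diamond of INV16 replicate 4 is the highest point, and in the 4 Cbfa2t3 panels the ACD mutant arrays lie above INV16 replicates 1 to 3.

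Setting the ACD mutant against MIB control asks what remains when the fusion lacks its assembly domain. Here limma called none of the 23 member probe sets at an adjusted p under 0.05, against 1.68% of all probe sets tested; 8 of the 23 had an unadjusted p under 0.05, against 19.6% of all. With INV16 replicate 4 in the fit none was called and 0.0220% of all were. The call count rested on single arrays, since 2 member probe sets passed when MIB control replicate 7 was left out: Runx1 1440878_at (log2 fold change 0.59, adjusted p = 0.0283) and Cbfa2t3 1418582_at (0.57, adjusted p = 0.0372).

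Runx3 1440275_at read 10.20, 9.96 and 9.93 in the ACD mutant, inside the 9.68 to 10.59 of MIB control. Its log2 fold change of -0.16 had a 95% interval of -0.59 to 0.27, which leaves out the -1.65 seen with INV16. Tle3 1419655_at read 9.14, 9.38 and 8.99 in the ACD mutant, overlapping the 8.75 to 9.20 of MIB control (log2 fold change 0.28, 95% interval -0.0029 to 0.56). Tle1 1422751_at read 9.23, 8.89 and 8.87, just above the highest control at 8.86 (log2 fold change 0.58, SE 0.19, adjusted p = 0.116). These 2 comparisons share the MIB control arrays.

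Among the Runx1 probe sets 5 of 6 had a positive log2 fold change in the ACD mutant against MIB control. That of 1422864_at was 1.03 (SE 0.36, adjusted p = 0.134) and that of 1440878_at 0.52 (SE 0.12, adjusted p = 0.0531). Probe set 1440878_at read 9.93, 9.72 and 9.65 in the ACD mutant, against 9.21, 9.21, 9.11, 9.20 and 9.52 in MIB control replicates 3 to 7, without overlap. All 4 Cbfa2t3 log2 fold changes were positive, from 0.29 to 0.59, and none passed. Within the arrays of low spike-in difference, 3 ACD mutant against 2 MIB control, those of Cbfa2t3 ran from -0.04 to 0.59 and the Runx1 1440878_at value was 0.41 (adjusted p = 0.173). The megakaryocyte markers averaged 8.57 to 8.91 log2 units in the ACD mutant and 7.34 to 9.49 in MIB control. The averages of the other marker lists also overlapped between these groups, but some single markers did not. The mast cell gene Hdc read 10.32 to 10.62 in the ACD mutant and 8.32 to 9.34 in MIB control. Cpa3 and Il7r, the latter below the filter, were also higher without overlap, and Fcer1a, S100a9 and Nkg7 were lower. The part of these markers in the Cbfa2t3 and Runx1 values was not tested. In all, 4 of 23 member probe sets did not overlap between the ACD mutant and MIB control, against 12.9% of all probe sets tested. Of these, 3 were higher in the ACD mutant (2 of Runx1 and 1 of Tle1), against 6.83% of all, and 1 was lower (Cbfb), against 6.04%.

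Set directly against the ACD mutant, INV16 was lower in 1 probe set each of Runx3 and Tle3, the same that were lower against MIB control. Runx3 1440275_at was 2.81-fold lower in INV16 replicates 1 to 3 (log2 fold change -1.49, SE 0.22, limma adjusted p = 0.00881). It kept the call with INV16 replicate 4 (-1.41, adjusted p = 0.0494) and lost it without INV16 replicate 2 (-1.40, adjusted p = 0.0534). Tle3 1419655_at was 2.27-fold lower (log2 fold change -1.18, SE 0.15, adjusted p = 0.00360), and with INV16 replicate 4 the difference was -0.92 (adjusted p = 0.226). The other tested probe sets of these genes did not pass in limma. Their log2 fold changes were -0.24 for Runx3 1421467_at (adjusted p = 0.487), -0.36 for Tle3 1458512_at (0.462) and -0.33 for Tle3 1419654_at (0.334). Tle1 1422751_at was 0.53 log2 higher in INV16 and did not pass (adjusted p = 0.212). The 4 Cbfa2t3 log2 fold changes were -0.43 to -0.77 and the smallest adjusted p among them 0.110.

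The averages of 5 marker lists were lower on INV16 replicates 1 to 3 than on the ACD mutant arrays, without overlap. They were 7.36 to 7.50 and 8.57 to 8.91 log2 units for the megakaryocyte list, and 5.25 to 5.74 and 5.93 to 6.32 for the neutrophil list. For the monocyte list they were 8.54 to 9.07 and 9.15 to 9.41, for the mast cell list 6.53 to 6.62 and 6.93 to 7.12, and for the erythroid list 5.89 to 6.16 and 6.21 to 6.44. Not every marker followed its list. The mast cell gene Cma1 was higher in INV16, at 5.05 to 5.27 against 4.64 to 4.80. The groups overlapped for the mast cell genes Fcer1a, Mcpt4, Tpsb2 and Il4 and the erythroid gene Hba-a1. They also overlapped for the neutrophil genes Camp, Ngp and Elane and the monocyte genes Csf1r, Cd68, Cd14 and Ccr2. The other markers of the 5 lists were lower in INV16 without overlap. The averages of the B cell, T and NK cell, fibroblast and endothelial, and sort marker lists overlapped. The part of these markers in the Runx3, Tle3 and Cbfa2t3 values was not tested.

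Over the members, 2 of 23 probe sets were called in INV16 against the ACD mutant, against 1.27% of all probe sets tested. Both were lower in INV16, against 1.04% of all called lower and 0.238% called higher. An unadjusted p under 0.05 was found for 11 of the 23, against 18.3% of all. With INV16 replicate 4 in the fit 1 of 23 was called, against 0.0882%. The spike-in difference was high on INV16 replicates 1 to 3 and low on all ACD mutant arrays, so group and spike-in set cannot be told apart within this comparison. With that split as a block, which ties the groups together only through the MIB control arrays, the Runx3 log2 fold change was -1.98 (adjusted p = 0.128) and that of Tle3 -0.92 (adjusted p = 0.215). In that fit 0 of 22683 probe sets were called. Without overlap were 15 of 23 member probe sets, against 28.0% of all. In INV16, 11 of the 15 were lower, the 4 of Cbfa2t3 among them, against 17.1% of all, and 4 were higher, against 10.9%.

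**Figure D4:**
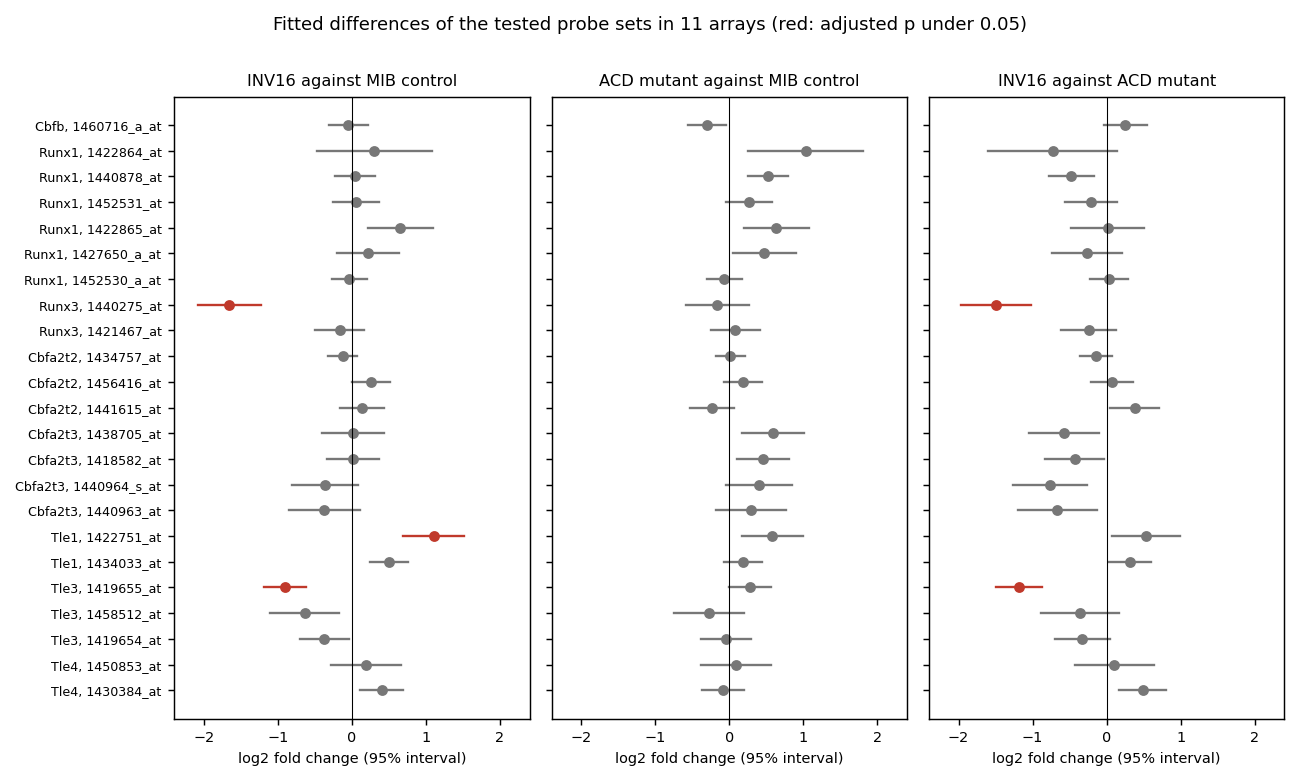
Log2 fold changes of the 23 tested member probe sets in the 3 comparisons, from the fit to 11 arrays. Points are estimates, lines their 95% intervals and red marks an adjusted p under 0.05. Runx3 1440275_at and Tle3 1419655_at are red on the lower side in both panels with INV16, Tle1 1422751_at is red on the higher side against MIB control, and none is red for the ACD mutant against MIB control.

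Runx1t1 encodes ETO itself. All 6 of its probe sets were below the filter and were not tested, and on 11 of 12 arrays they read between 3.19 and 4.60. On INV16 replicate 4 alone, 4 of the 6 read far higher. Probe set 1444615_x_at read 11.02 there, against 3.41 to 3.65 on the other INV16 arrays, 3.31 to 3.42 on the ACD mutant arrays and 3.37 to 3.60 on the MIB control arrays. Probe set 1437784_at read 9.74 on this array, against 3.47 to 3.92 on the other 11. The values there of 1448785_at and 1427640_a_at were 8.48 and 8.26, and those of 1440310_at and 1443788_at, at 4.26 and 3.25, stayed within the range of the other arrays. The mast cell markers, given above, were also high on this array. Its Gapdh end-to-end difference was 3.64 log2. The first ACD mutant array had a difference of 3.17 and read 3.41 in 1444615_x_at and 3.79 in 1437784_at. The 3 named erythroid markers averaged 8.16 on INV16 replicate 4 and 5.89 to 6.16 on the other INV16 arrays. Their averages were 6.21 to 6.44 on the ACD mutant arrays and 5.74 to 6.36 on the MIB control arrays. Klf1, a red cell transcription factor gene, read 10.72 on INV16 replicate 4 and 6.21 to 7.31 on the other 11. Epor read 9.20 on it and 6.73 to 8.30 on the other 11. Hba-a1, below the filter, hardly differed, at 4.57 on it and 3.96 to 4.56 on the other 11. The platelet integrin gene Itga2b read 12.10 on it and 9.29 to 10.83 on the others. The megakaryocyte list as a whole averaged 6.95 on it and 7.36 to 7.50 on the other INV16 arrays. Its averages were 8.57 to 8.91 on the ACD mutant arrays and 7.34 to 9.49 on the MIB control arrays. Of that list Pf4 (6.22), Gp1bb (4.64) and Ppbp (4.77) lay below all other arrays, and Gp9 lay within their range. The part of these markers and of the Gapdh difference was not tested.

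**Figure D5:**
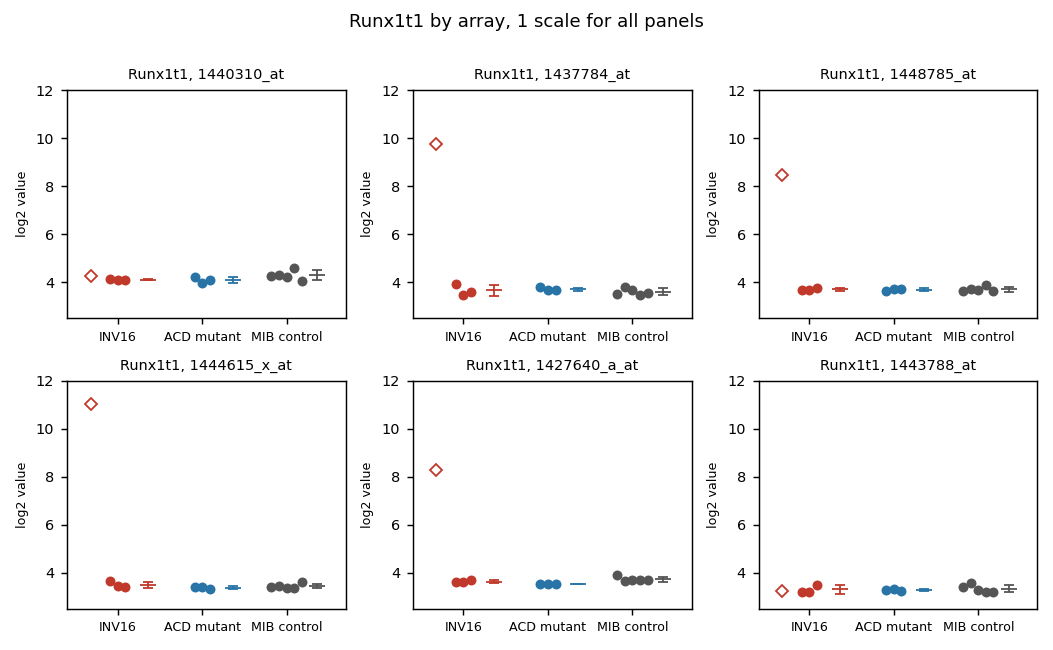
Log2 values of the 6 Runx1t1 probe sets on 1 common scale, drawn as in the plots of the other members. In 4 panels the open diamond of INV16 replicate 4 lies between 8.26 and 11.02 while the filled points of all groups lie under 4.0.

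Other genes of the pathway were taken from lists written down with earlier results of these data known. Of 36 RUNX partners and corepressors, among them the histone deacetylases, SIN3 proteins, GATA factors and further Tle genes, 32 were tested by their brightest probe set. None was called in any of the 3 comparisons. Over all 12912 genes with a tested probe set, taken in the same way, 1.40% were called in INV16 against MIB control, 1.46% in the ACD mutant against MIB control and 1.39% in INV16 against the ACD mutant. The median over the 32 was 0.06 log2 in INV16 against MIB control, 0.11 in the ACD mutant against MIB control and -0.07 in INV16 against the ACD mutant. Of 35 RUNX target genes, 27 were tested. In INV16 against MIB control 0 rose and 2 fell, against 0.929% of all genes called lower, and 25 did not pass. The median was -0.18. Nfe2, a transcription factor of platelet and red cell precursors, read 9.16 ± 0.17 (SD, n = 3) in INV16 replicates 1 to 3 and 10.71 ± 0.52 (SD, n = 5) in MIB control (limma log2 fold change -1.55, adjusted p = 0.00893). The survival gene Bcl2 read 9.70 ± 0.18 in INV16 replicates 1 to 3 and 10.40 ± 0.24 in MIB control, and fell by 0.70 on the log2 scale (adjusted p = 0.0317). None of the 27 was called in the ACD mutant against MIB control, where the median was 0.04. In INV16 against the ACD mutant Nfe2 fell by 1.74 on the log2 scale (adjusted p = 0.0104), against 1.18% of all genes called lower, 26 did not pass and the median was -0.40. The part in the Nfe2 values of the marker lists that were lower in INV16 than in the ACD mutant, given above, was not tested. With INV16 replicate 4 in the fit, 0 genes of either list were called in the 3 comparisons, with Nfe2 against MIB control at -1.36 (adjusted p = 0.0776).

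The called members were picked by group differences on the same 11 arrays. Correlations among them over these arrays therefore follow in part from that choice and are no separate evidence. The Pearson correlation of Runx3 1440275_at was 0.85 with Tle3 1419655_at and -0.73 with Tle1 1422751_at. That of Tle3 1419655_at with Tle1 1422751_at was -0.59. With the uncalled Cbfb 1460716_a_at and Runx1 1422864_at, Runx3 1440275_at had correlations of 0.01 and -0.01. These are descriptions over arrays that share the 3 groups and the spike-in sets. The genes whose pattern over the 11 arrays was most like that of Runx3 were Rapgef3 (r = 0.96), Fut8 (0.95) and Mn1 (0.94). For Tle1 1422751_at they were Ctr9 (0.97), Acbd3 (0.96) and Arid5b (0.95), for Cbfb Serinc1 (0.98), Scyl2 (0.97) and Cenph (0.96), and for Runx1 1422864_at Vps13a (0.97), Map3k2 (0.96) and Prdm2 (0.96).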

How the data were processed

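The authors deposited 1 table of log2 values for 45101 probe sets and 12 arrays; their range, 2.82 to 14.97, is what identifies the log base. Per the labels, RNA was amplified by repeated cDNA synthesis before biotin labelling; the authors' background correction, normalisation and summarisation are not given in the sources used here. Low values on such arrays can be compressed, and differences of dim probe sets may then be understated, which was not tested. Array medians differed by at most 0.17, and precision is limited by how few arrays each group has. All columns of samples were used.

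The platform annotation named 34945 non-control probe sets with 1 symbol, 932 with several and 9211 with none; only the first were used, and no probe set with several symbols held a member. Probe sets with a mean over 12 arrays above the 40th percentile (22683) were tested in limma 3.58.1 (R 4.3.3) with a mean per group and moderated variances (residual degrees of freedom 8, prior 4.67), and p-values were adjusted by Benjamini-Hochberg over all of them; tests were two-sided, and adjusted p under 0.05 was a call. The model was also run on simulated arrays with independent noise. These held no spike-in sets and no outlying array, so that run cannot show how such effects bear on the calls. The fit per probe set, not per gene, and without INV16 replicate 4 was set in the design, and members, lists and this choice were made with earlier results of these data known. Named were all member probe sets, called list genes, the 3 genes most correlated with Cbfb, Runx1, Runx3 and Tle1 (each at its brightest probe set) and the markers. Marker lists were averaged over their named genes. Replicates were sorted and transduced separately, per the labels' design text. Alternatives were all 12 arrays, 1 probe set per gene, no filter, quantile normalisation, the spike-in split as a block or within its sets, only the 2 groups compared, the replicate block and each array left out. The block for INV16 against the ACD mutant by spike-in set was added after seeing the data.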

Additional observations from a re-analysis of the deposited data

Results flagged for a closer look

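Within the INV16 group of 4 and the MIB control group of 5, single arrays were set against the rest by Dixon's ratio, for 31 probe sets in both groups, 62 checks in all; chance alone gives about 5%. It picked out 13 values, 11 of them on INV16 replicate 4. That array differed from the others across probe sets, and the share of all probe sets picked out in this way was not computed. Probe sets of the same gene are also not independent checks, so these counts cannot be judged against the 5%. For Runx1t1, INV16 replicate 4 was highest in 1444615_x_at (11.02), 1437784_at (9.74), 1448785_at (8.48), 1427640_a_at (8.26) and, by a small margin, 1440310_at (4.26, against 4.10 to 4.12 on the other INV16 arrays). For Runx1 it was highest in 1440878_at (11.49), 1427650_a_at (9.20), 1452531_at (8.72) and 1452530_a_at (7.19). For Tle3 it was highest in 1419654_at (5.86, against 5.05 to 5.18), and for Tle1 lowest in 1422751_at (7.62, against 9.39 to 9.72). In MIB control, replicate 7 was highest in Runx1 1440878_at (9.52, against 9.11 to 9.21) and replicate 3 in Runx1t1 1427640_a_at (3.91, against 3.68 to 3.69). The last value is below the expression filter.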

How the results depend on the processing

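Of 1220 alternative values of the member probe sets, 1199 kept their side of the threshold, 14 lost a call and 7 gained one. No called value changed sign, and 57 uncalled ones did. Most of the 1220 belong to uncalled results, which had no call to lose, so the 1199 says little about the calls. Of the 14 lost calls, 10 were in INV16 against MIB control and 4 in INV16 against the ACD mutant. With single arrays left out, the call against MIB control was kept in 11 of 11 fits for Runx3 1440275_at. It was kept in 10 of 11 for Tle3 1419655_at and 9 of 11 for Tle1 1422751_at. In the other alternatives it was kept in 7 of 8, 5 of 8 and 5 of 8. Member probe sets called in INV16 against MIB control numbered 3, and 1 with all 12 arrays, 1 within the arrays of high spike-in difference, 0 with the replicate block on 12 arrays, and 1 to 4 with single arrays left out (1 without INV16 replicate 1). In INV16 against the ACD mutant they numbered 2, and 1 with all 12 arrays, 0 with the spike-in split as a block, 4 with only the 2 groups fitted, and 1 to 2 with single arrays left out. In the ACD mutant against MIB control they numbered 0, and 0 to 2 with single arrays left out.

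Over all probe sets, the 315 calls of INV16 against MIB control became 47 with 12 arrays, 173 with the spike-in block, 12 within the high set, 120 with only the 2 groups, 0 with the replicate block and 38 to 622 with single arrays left out. The 289 calls of INV16 against the ACD mutant became 20 with 12 arrays, 0 with the spike-in block, 1057 with only the 2 groups and 43 to 508 with single arrays left out. The 382 calls of the ACD mutant against MIB control became 5 with 12 arrays, 219 with 1 probe set per gene, 580 after quantile normalisation, 23 with the spike-in block, 93 within the low set, 119 with only the 2 groups and 10 to 760 with single arrays left out. The cause was not tested.

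Under the replicate block, which included INV16 replicate 4, the log2 fold change of INV16 against MIB control was -1.68 for Runx3 1440275_at (adjusted p = 0.284), -0.35 for Tle3 1419655_at (0.474) and 0.20 for Tle1 1422751_at (0.641). Same-numbered INV16 and ACD mutant arrays deviated from their group means with correlations of -0.13, -0.20 and -0.32, so the numbers were not taken as pairs. Between different numbers the correlations ran from -0.23 to 0.43. Pairing of INV16 with MIB control was not checked. Those groups share only numbers 3 and 4, and number 4 is the outlying INV16 array. The ACD mutant and MIB control share only number 3, so no paired fit was made there. Low values near the floor of the arrays, as for Runx1t1, limit what differences could be seen.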
